A study of Mus musculus with 2 samples.

Results

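The leukocyte integrin genes described here are 9 genes chosen by name: the alpha chain genes Itgal, Itgam, Itgad, Itgae and Itga4, and the beta chain genes Itgb1, Itgb2, Itgb3 and Itgb7. They are 9 of 21938 protein-coding genes on the assembled chromosomes of the GENCODE M21 annotation of mm10. Every DNase-seq peak that overlapped the body of a member or the 20 kb on either side was taken as a peak of that member. A peak was a promoter peak where it overlapped the 1 kb on either side of any annotated transcription start site of the member, and a distal peak otherwise.

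DNase-seq cuts chromatin with the enzyme DNase I, and regions rich in cuts are open chromatin. Whole spleen was measured in 2 male mice of the hybrid B6CASTF1/J at the age of 2 months, untreated as far as the labels say, with 1 library from each. They are called animal 1 and animal 2 after the replicate numbers in the labels. The labels number them as separate males but give both the same donor identifier. There is 1 group and no contrast, so every value below is a description, and an SD is over these 2 animals. The cross joins a C57BL/6J genome with one of Mus musculus castaneus, while the cuts were placed on the C57BL/6J reference, and the part this had in any value was not tested. Whole spleen is a mixture, so more cells of a type and more open chromatin per cell cannot be told apart.

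Integrins are adhesion receptors made of 1 alpha and 1 beta chain. On leukocytes, Itgb2 pairs with Itgal to form LFA-1, which binds ICAM proteins on other cells, with Itgam to form Mac-1 of myeloid and natural killer cells, and with Itgad to form a receptor of some splenic macrophages. Itga4 pairs with Itgb1 to form VLA-4, which binds VCAM-1 and fibronectin, or with Itgb7 to form the receptor that directs lymphocytes to the gut through MAdCAM-1. Itgae also pairs with Itgb7, binds E-cadherin and is known from T cells and dendritic cells of epithelia. Itgb3 is the beta chain of the platelet fibrinogen receptor, with Itga2b as its partner.

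The longer of the deposited peak lists held 79246 peaks in animal 1 and 77231 in animal 2, with 211394 and 215907 footprints, which are short stretches protected from cutting inside open chromatin. The height of a peak is the authors' own value, listed in steps of 0.00716 in animal 1 and 0.00679 in animal 2, and the median over all peaks was 0.888 and 1.05. Promoters of genes that mark B cells were open, meaning that a promoter peak was listed, in both animals in 5 of 5 cases, T cell genes in 4 of 6, macrophage and monocyte genes in 2 of 4, endothelial genes in 2 of 3 and stromal genes in 2 of 3. T cell, endothelial and stromal shares (66.7%) and the macrophage share (50%) lie near the 59.8% of all coding genes. They say little about cell types. Median heights of open genes in animal 2 were 8.96 for B cells, 1.34 for T cells and 1.035 for macrophages and monocytes. They were 2.75 for endothelial and 2.02 for stromal genes, against 6.63 over all open promoters. Of these only the B cell median exceeded it in animal 1 too, 9.36 against 5.62. None of 4 neutrophil genes, 3 natural killer cell genes, 3 pancreatic acinar genes or 2 hepatocyte genes had a promoter peak in either animal. Of 4 megakaryocyte genes only Itga2b had one, and 0 of 3 erythroid genes had one in both animals.

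A promoter peak was listed at 7 of the 9 integrin genes in animal 1 and at the same 7 in animal 2. Itgad and Itgae had none. The share of all protein-coding genes with an open promoter was 61.4% in animal 1, 62.6% in animal 2 and 59.8% in both. The members' share of 77.8% rests on 9 genes, which were chosen with earlier results of these data known. Where a promoter was open, it was mostly lower than usual: the median height of the 7 open members was 4.20 in animal 1 and 4.66 in animal 2, against 5.62 and 6.63 over all open promoters. Itga4 stood highest, at 14.5 ± 1.40 (SD, n = 2), and Itgam lowest, at 1.02 ± 0.231 (SD, n = 2).

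**Figure D1:**
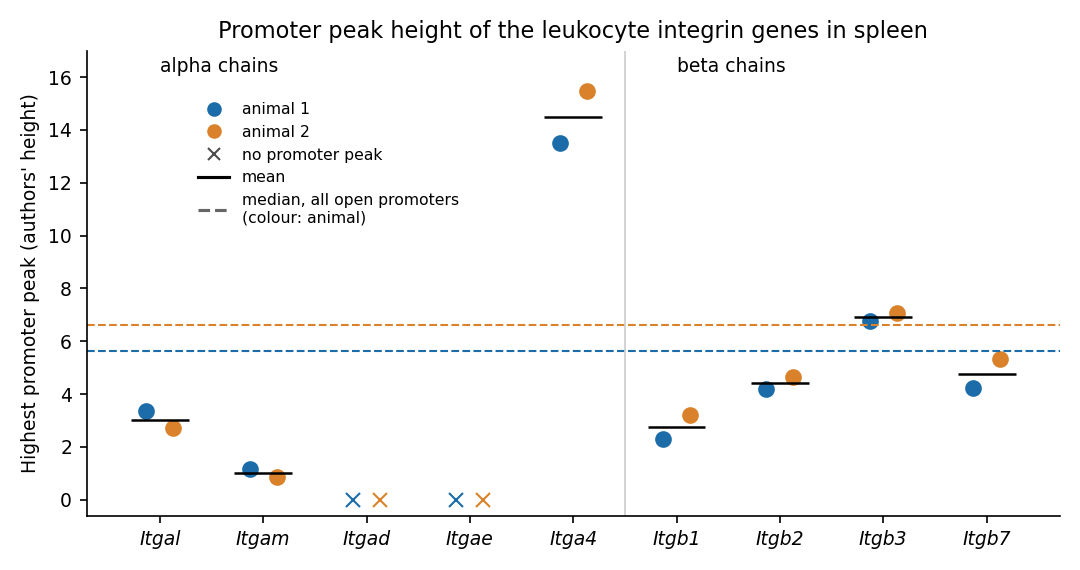
Height of the highest promoter peak (vertical axis, authors' height) of each integrin gene in animal 1 and animal 2, with their mean as a bar, a cross where no promoter peak was listed, and dashed lines at the median over all open promoters of each animal. Itga4 lies at 13.5 and 15.5, and Itgb3 at 6.78 (an internal start site, animal 1) and 7.09 (the main start site, animal 2). The other 5 open members lie below the median of their animal, and Itgad and Itgae have no peak.

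Sequences of the promoters show what these peaks lie on. The letters GAGGAAGT, a form of the site bound by PU.1, the ETS factor of myeloid cells and B cells, stood within 300 bases centred on 4 of 14 member promoter peaks in each animal. They are shown in their surroundings for the 4 genes that hold them, as 30 bases on the strand of the gene in the C57BL/6J reference (mm10), with the PU.1 letters or their reverse complement in capitals.
Itgal, chr7:127296233-127296262, plus strand: aacctgcttatACTTCCTCtctgaacagag
Itgb2, chr10:77530291-77530320, plus strand: aatgtcactcaACTTCCTCctgggcgctga
Itgb7, chr15:102231917-102231946, minus strand: cagggtgtgtcACTTCCTCctctgctgcct
Itga4, chr2:79254852-79254881, plus strand: actctatttaaGAGGAAGTgtatagagagg
In Itgal the letters ran from -16 to -9 bases relative to the most 5′ start site. In Itgb2 they lay 50 to 57 bases after it, and in Itgb7 9 to 16 bases after it. In these 3 genes they stood on the strand opposite to the gene and within the promoter peak itself. In Itga4 they lay farther upstream, from -563 to -556 bases relative to the start site, on the gene's own strand, under another promoter peak.

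The PU.1 letters were in 28.6% of the members' promoter windows, and in 3.90% of all promoter windows of animal 1 and 3.46% of those of animal 2. None of these 4 matches was covered by a footprint in either animal. Around footprints, 5 of 220 windows of 30 bases held the PU.1 letters in animal 1 (2.27%, against 0.795% of all footprint windows) and 3 of 240 in animal 2 (1.25%, against 0.546%). The RUNX letters TGTGGTT stood in 3 of 14 promoter windows in each animal (21.4%), against 4.60% and 4.09% of all promoter windows. Around footprints the RUNX letters gave opposite orders in the animals, with 2 of 220 windows in animal 1 (0.909%, against 1.08% of all) and 5 of 240 in animal 2 (2.08%, against 0.856%). The promoter windows with RUNX letters were at the promoter of Itgb2, an internal start site of Itgb3 and the second promoter peak of Itgb7. At Itgb7 the letters lay in the window but outside the peak itself. The T-box letters GGTGTGA were also in 3 of 14 (21.4%), against 3.62% and 3.57%. The SP letters GGGCGGG went the other way, with 2 and 3 of 14 windows (14.3% and 21.4%) against 36.2% and 37.7%. These motifs were picked out of 26, and others differed as well. Letters of C/EBP sites were in 0 of 14 promoter windows in each animal, against 8.26% and 7.48%. Letters of MYB sites were in 0 of 14 too, against 10.9% and 10.5%. TATA box letters were in 2 of 14 (14.3%), against 5.16% and 4.62%. The promoter windows of both animals were read from the same reference sequence, mostly at the same peaks, and some genes gave more than 1 window. Equal counts in the animals are therefore not independent of each other. In all 26 motifs were searched on both strands, the motifs may overlap each other, a match is letters only, and no test was made.

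The alpha chain genes ranged from the highest promoter of the family to none. Itga4, at chr2:79255426-79333123 on the plus strand, had its main promoter peak at chr2:79255201-79255400 and wholly before the most 5′ start site. Its height was 13.5 in animal 1 and 15.5 in animal 2, which placed the mean at percentile 88.0 of all promoters open in both animals. Both values were above those of every other member in either animal. This peak is printed whole, since more of it lay in footprints of both animals than of any other main promoter peak of the family, in lower case with the bases inside a footprint of both animals in capitals.
Itga4 promoter, chr2:79255201-79255400, plus strand: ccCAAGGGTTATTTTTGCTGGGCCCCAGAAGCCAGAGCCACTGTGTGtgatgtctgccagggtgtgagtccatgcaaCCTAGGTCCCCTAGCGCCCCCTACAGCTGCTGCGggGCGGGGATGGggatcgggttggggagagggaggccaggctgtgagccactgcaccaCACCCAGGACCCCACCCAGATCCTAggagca
In animal 1 121 of the 200 bases lay in a footprint and in animal 2 126, and 114 did so in both. Letters of 4 motifs lay at least in part in footprints of both animals: the CTCF core AGGGGGC on the minus strand, the E-box CAGCTG known from E2A, the SP letters, and the KLF letters CCACACCC. The T-box letters of this peak were outside footprints.

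Itga4 had further open sites close by. A second promoter peak at chr2:79254661-79254920, which holds the PU.1 letters shown above, was 4.18 high in animal 1 and 2.71 in animal 2. One more, at chr2:79255661-79255940 over the first exon, was listed at 3.06 in animal 2 with 7 footprints and was not listed in animal 1. The cut-rate file of animal 1 nevertheless covered all 280 bases of it, with a lowest false discovery rate of 1.44e-20, so cutting above background was listed there in animal 1 as well. The highest distal peaks were intronic, at chr2:79265741-79265920 with heights of 3.77 and 4.39, and at chr2:79259541-79259740 with 2.32 and 1.99. No distal peak of Itga4 lay at the promoter of another coding gene.

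Itgal, at chr7:127296260-127335138 on the plus strand, encodes the alpha chain of LFA-1. Its promoter peak at chr7:127296121-127296400 spanned the start site and the first exon, at a height of 3.36 in animal 1 and 2.72 in animal 2. The mean, 3.04 ± 0.455 (SD, n = 2), stood at percentile 27.5. It was one of 2 member promoters that were higher in animal 1. A start site inside the gene, of a coding transcript that begins 13258 bases downstream, had a lower peak at chr7:127308941-127309140 with 0.924 and 0.706. By the mean over both animals, its highest distal peak, at chr7:127346061-127346260 with 4.80 and 6.36, lay at the promoter of Zfp768, a zinc finger gene downstream. The next by the mean was at the Zfp768 promoter too, at chr7:127345561-127345800 with 1.92 and 2.13, and the highest by the mean of its other distal peaks was intergenic, at chr7:127278401-127278600 upstream, with 1.28 and 2.19.

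Itgam, at chr7:128062640-128118491 on the plus strand, encodes the alpha chain of Mac-1 and is a standard marker of myeloid cells. Its promoter peak was the lowest of the open members, with 1.18 in animal 1 and 0.855 in animal 2. That placed the mean at percentile 12.0, and the height in animal 2 was below the median over all peaks of that animal. Its cut-rate intervals had the weakest support of the open main promoters, with a lowest false discovery rate of 3.70e-07 in animal 1 and 0.000791 in animal 2, against 8.42e-88 and 1.28e-107 at Itga4. The coding model Gm49368 also has a start site within 1 kb of this peak, so the peak cannot be given to Itgam alone. The first part of the peak, up to base 30 of the transcript, is shown for comparison with Itga4, with capitals for the few bases in a footprint of both animals.
Itgam promoter, chr7:128062541-128062669, plus strand: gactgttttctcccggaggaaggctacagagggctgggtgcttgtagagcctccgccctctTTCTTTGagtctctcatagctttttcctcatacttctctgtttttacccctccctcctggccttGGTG
Of these 129 bases 11 lay in a footprint of both animals. None of the 26 motifs was found in this peak.

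The distal peaks of Itgam were low as well. The highest distal peak lay in an intron at chr7:128067981-128068160, 5328 bases after the nearest start site, and exceeded the promoter peak in both animals with 1.53 and 1.88. The next by the mean over both animals lay upstream at chr7:128048801-128049200 with 1.32 and 0.788. The downstream flank reached the promoter of Itgax, another myeloid alpha chain gene, whose peak at chr7:128133701-128133960 was 1.03 and 0.883 high. Neutrophil markers were at 0 of 4 in both animals and macrophage markers at 2 of 4, and the part of cell make-up in the low height at Itgam was not tested.

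Itgad and Itgae were the members with no promoter peak. None of the 5 start sites of Itgad, at chr7:128154376-128223816 on the plus strand, nor the single start site of Itgae, at chr11:73090583-73147446 on the plus strand, had a cut-rate interval with a false discovery rate under 0.05 within 1 kb in either animal. The peak lists and the cut-rate intervals come from the same libraries, so they are not independent of each other. They show only that cutting above background was not listed there, and the part of depth, cell make-up or read placement was not tested. Both genes had distal peaks nonetheless, 11 and 9 for Itgad and 10 and 10 for Itgae in animals 1 and 2. Per kb of window these counts stood at percentiles 82.0 and 76.4 of all protein-coding genes for Itgad. For Itgae the percentiles were 82.7 and 83.2. At promoters of other coding genes lay 4 and 3 of the peaks of Itgad and 3 and 3 of those of Itgae.

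At Itgad the high peaks lay at the promoters of its neighbours, though position does not assign a peak to a gene. The peak at chr7:128238321-128238540 was the highest in any member window, with 23.9 in animal 1 and 25.9 in animal 2, and chr7:128237961-128238160 reached 13.1 and 16.0. Both lay within 1 kb of start sites of Armc5 and 9130023H24Rik, downstream of Itgad. Inside the gene the highest was intronic, at chr7:128208301-128208480 with 1.61 and 1.87, followed, by the mean over both animals, by chr7:128180181-128180460 with 0.960 and 1.21. Of the 7 distal peaks of Itgad outside other promoters in animal 1, 3 were found in animal 2, the lowest share of the 9 genes in that direction. Its exonic site at chr7:128189741-128190026, 0.177 high in animal 2, stood at percentile 1.42 of all peaks of that animal.

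At Itgae the high peaks lay within 1 kb of the start of Haspin, a kinase gene that lies inside an intron of Itgae. They were at chr11:73138261-73138440 with 6.03 and 8.81, and at chr11:73137601-73137820 with 1.57 and 2.42. The 5 other intronic sites of Itgae were listed in both animals and were low, from 0.430 to 0.867 in animal 1 and from 0.543 to 1.13 in animal 2. The site at chr11:73107461-73107639 is printed because it was one of 2 in the family with the RUNX letters wholly inside a footprint of both animals. RUNX factors are known regulators of T cell genes. Bases in a footprint of both animals are in capitals.
Itgae intron, chr11:73107461-73107639, plus strand: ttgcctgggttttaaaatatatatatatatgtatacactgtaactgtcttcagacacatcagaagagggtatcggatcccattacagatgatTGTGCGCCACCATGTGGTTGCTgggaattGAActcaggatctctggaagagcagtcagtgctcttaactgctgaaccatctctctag
The longer run of capitals, 22 bases with the RUNX letters in it, has 57 exact copies in the reference over both strands of the 21 assembled chromosomes. Copies that differ by any base were not counted, so the letters may be repeated more often than this. The footprint thus lies on letters that are repeated in the genome, and the part that read placement had in it was not tested. The site was 0.702 high in animal 1 and 1.01 in animal 2.

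The 4 beta chain genes all had promoter peaks, of middle or low height. Itgb2, the common beta chain of LFA-1 and Mac-1, lies at chr10:77530252-77565708 on the plus strand. Its promoter peak at chr10:77530241-77530440, over the start site and the first exon, was 4.20 in animal 1 and 4.66 in animal 2, and their mean stood at percentile 36.9. It was higher than the promoters of its partners Itgal and Itgam in both animals. The 2 highest distal peaks were at promoters of neighbours, Pttg1ip at chr10:77581541-77581780 with 10.5 and 11.8, and Fam207a at chr10:77515761-77515960 with 9.31 and 12.2.

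Outside those promoters Itgb2 had 3 distal peaks of more than 2 in height in both animals. A site downstream of the gene, at chr10:77566781-77566960, was 3.50 in animal 1 and 6.41 in animal 2. Upstream, chr10:77517141-77517320 had 2.80 and 4.12 and chr10:77522361-77522600 had 2.90 and 2.61. These 3 sites were intergenic, had 3 to 5 footprints in each animal and were found in both.

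Itgb7 lies at chr15:102215995-102231944 on the minus strand and has the shortest gene body of the family, 15.95 kb. Its promoter peak at chr15:102231841-102232040 was 4.22 in animal 1 and 5.32 in animal 2. Their mean, 4.77 ± 0.776 (SD, n = 2), stood at percentile 39.2. A second promoter peak, at chr15:102230941-102231160 in an intron, had 1.90 and 2.06. The 2 start sites near the end of the gene had no cut-rate interval within 1 kb. The gene had the most distal peaks, 16 in each animal or 0.286 per kb of window, at percentiles 99.1 and 98.8 of all protein-coding genes. Of these 11 in animal 1 and 9 in animal 2 lay at the promoters of the neighbours Csad, Zfp740 and Rarg, the highest at chr15:102203421-102203680 with 10.6 and 14.2.

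Within its own body Itgb7 had 2 strong sites, both listed in both animals and at least as high as its promoter. The peak in an exon at chr15:102224561-102224780 was 4.32 and 6.15. The peak in an intron at chr15:102225201-102225440 was 5.22 and 5.51 and is printed because it held the letters CCCTAGGGA, a form of the site of the B cell factor EBF1, inside a footprint of both animals. Capitals mark the bases in such footprints.
Itgb7 intron, chr15:102225201-102225440, minus strand: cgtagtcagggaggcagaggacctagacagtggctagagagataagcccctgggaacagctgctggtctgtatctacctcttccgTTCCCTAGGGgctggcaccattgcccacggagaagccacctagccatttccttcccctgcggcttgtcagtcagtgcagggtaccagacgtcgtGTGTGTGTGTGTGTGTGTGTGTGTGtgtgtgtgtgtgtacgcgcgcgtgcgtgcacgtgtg
The first run of capitals holds the EBF1 letters, read on the other strand. The second lies in a stretch of 40 bases of repeated GT, where the placement of short reads is less certain, and its part in that footprint was not tested. EBF1 letters were in 1 of 220 footprint windows of the members in animal 1 (0.455%, against 1.11% of all) and in 6 of 240 in animal 2 (2.50%, against 1.11%), which gave opposite orders in the 2 animals.

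Itgb1, the partner of many alpha chains in most cell types, lies at chr8:128685654-128733200 on the plus strand. Its promoter peak at chr8:128685521-128685920 was 2.30 in animal 1 and 3.23 in animal 2. Their mean, 2.76 ± 0.655 (SD, n = 2), stood at percentile 25.6. It held 53 CpG in 400 bases, the most per 100 bases (13.2) of the members' promoter peaks, and the SP letters lay in a footprint of both animals. A peak of 1.13 and 1.56 followed over the first intron. Itgb1 had the fewest distal peaks, 2 in animal 1 and 1 in animal 2, and the one found in both, in an intron at chr8:128709381-128709580, was 2.39 and 3.37, slightly above the promoter in each. The other, at chr8:128680041-128680186, was listed in animal 1 only, at 0.351. The start site near the end of the gene had no cut-rate interval in either animal.

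Itgb3, at chr11:104608000-104670476 on the plus strand, was open at 2 start sites. The main one, with 25 CpG in 200 bases or 12.5 per 100, had a peak at chr11:104608041-104608240 that was 4.08 in animal 1 and 7.09 in animal 2. The second is the start of a processed transcript 29389 bases downstream, and its peak at chr11:104637101-104637380 was 6.78 and 6.80. The highest promoter peak was therefore the internal one in animal 1 and the main one in animal 2. With the start sites of coding transcripts alone, the mean height of Itgb3 was 5.58 in place of 6.94. The internal peak overlaps 114 bases of coding exon and is printed as the second site with RUNX letters inside a footprint of both animals, with such footprints in capitals.
Itgb3 internal start, chr11:104637101-104637380, plus strand: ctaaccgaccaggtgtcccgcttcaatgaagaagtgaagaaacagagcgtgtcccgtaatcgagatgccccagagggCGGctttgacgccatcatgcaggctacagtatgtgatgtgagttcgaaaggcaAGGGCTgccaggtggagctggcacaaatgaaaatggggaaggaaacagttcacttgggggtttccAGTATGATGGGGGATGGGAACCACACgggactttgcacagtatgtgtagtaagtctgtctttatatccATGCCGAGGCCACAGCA
The longest run of capitals holds the reverse complement of the RUNX letters, AACCACA, near its end. Of the 280 bases 52 lay in a footprint of both animals.

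The distal peaks of Itgb3 were mostly in its own introns. The highest lay upstream, at chr11:104590201-104590400 in an intron of Myl4, a myosin light chain gene, with 5.01 in animal 1 and 5.04 in animal 2. The second was at chr11:104631421-104631600, between the main and the internal start site, with 2.77 and 2.80. These sites differed little between the animals, with log2 ratios of 0.01 and 0.02, and so did the internal start site. Of 8 and 10 distal peaks, 7 and 8 were inside the gene and 0 and 1 at the promoter of another coding gene. Its platelet partner Itga2b had a promoter peak of 7.68 ± 0.474 (SD, n = 2), while the other 3 megakaryocyte genes of the list, which are Gp1ba, Pf4 and Gp9, had none.

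**Figure D2:**
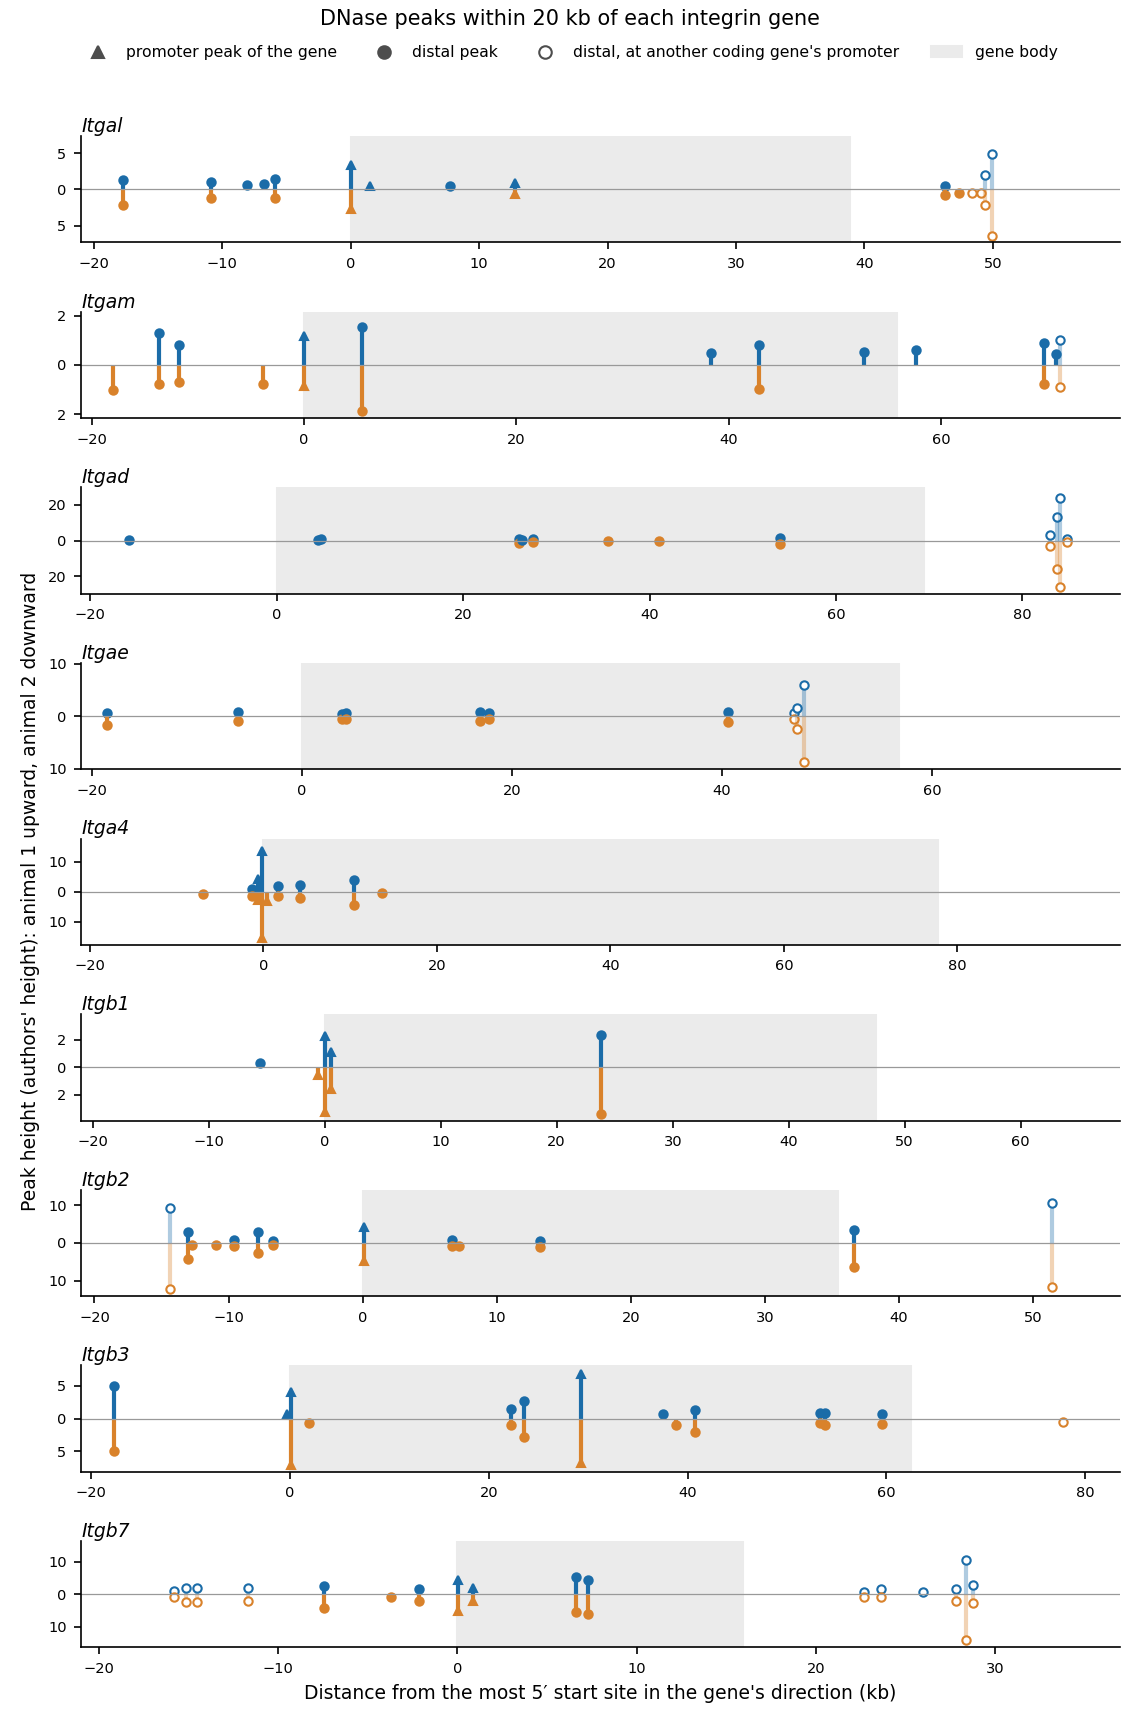
Height of every peak (vertical axis, authors' height, animal 1 upward and animal 2 downward, each gene on its own scale) against the distance from the most 5′ start site in kb, with the gene body shaded, promoter peaks as triangles, distal peaks as filled circles and distal peaks at the promoters of other coding genes as open circles. Itgad and Itgae have no triangle, their highest peaks are open circles, and Itgb3 has its second triangle, with 6.78 and 6.80, well inside the gene.

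Over the 9 genes there were 93 peaks in animal 1 and 95 in animal 2, of which 14 and 14 were promoter peaks and 79 and 81 distal. Overlapping peaks of both animals merged into 109 sites, 16 at promoters and 93 distal. Of the distal sites 34 were in an intron and 4 in an exon of the member, 34 in another gene and 21 between genes. At the promoters of other coding genes lay 23 distal peaks in each animal. The members had a median of 0.103 distal peaks per kb of window in animal 1 and 0.0976 in animal 2. Over all protein-coding genes, with an open promoter or without, it was 0.0378 and 0.0354 with the same window. Both densities include peaks at the promoters of other coding genes, and no density without them was compared. Without the peaks at promoters of coding genes, the members' distal peaks had a median height of 0.870 and 0.951, against 0.738 and 0.849 over all such peaks. Itga4 and Itgb1 had the lowest density of the members, with 4 and 6 distal peaks for Itga4 at percentiles 47.4 and 62.0, and 2 and 1 for Itgb1 at percentiles 39.5 and 27.4.

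**Figure D3:**
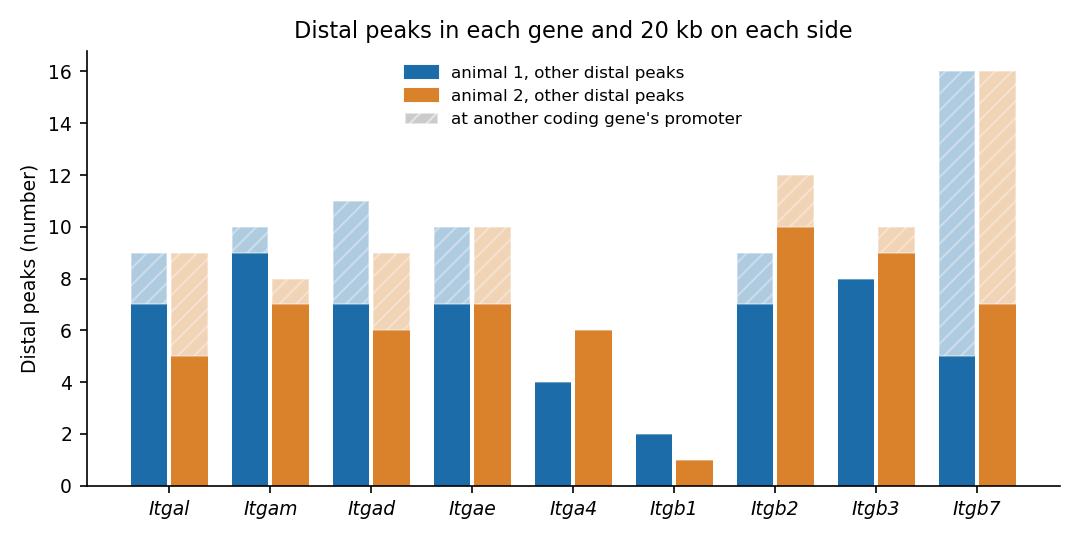
Number of distal peaks (vertical axis) of each integrin gene in animal 1 and animal 2, with the hatched part at the promoters of other coding genes. Itgb7 has 16 in each animal, of which 11 and 9 are hatched, and Itgb1 has 2 and 1.

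Most of these peaks were found in both animals. Animal 2 had an overlapping peak for 77 of the 93 peaks of animal 1 (82.8%), and animal 1 had one for 77 of the 95 of animal 2 (81.1%). Over all peaks the shares were 76.5% and 79.0%. The 34 sites listed in 1 animal only, 16 in animal 1 and 18 in animal 2, were low: their median height was 0.560, against a mean over both animals with a median of 1.74 at the 75 sites listed in both. The highest of them was the promoter peak of Itga4 over its first exon, at 3.06, and the next, at Itgam, was 1.00. In 28 of the 34 the cut-rate file of the other animal listed no interval within the site, and in 6 it listed at least 1.

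As a set, the heights differed little between the animals. Over 73 member peaks matched 1 to 1, the log2 ratio of animal 2 to animal 1 had a median of 0.16, an SD over peaks of 0.40 and a range from -0.74 to 1.60. Over all 58277 matched peaks the median was 0.23 with an SD of 0.41, and 72.6% of the member peaks were higher in animal 2, as were 71.6% of all matched peaks. At promoters the log2 ratio was -0.47 at Itgam, -0.31 at Itgal, 0.06 at Itgb3, 0.15 at Itgb2, 0.20 at Itga4, 0.33 at Itgb7 and 0.49 at Itgb1. These values compare the highest promoter peak of each gene, which at Itgb3 was not the same peak in both animals. At the main start site of Itgb3, with 4.08 in animal 1 and 7.09 in animal 2, the log2 ratio was 0.80. Of the 73, 1 peak lay over 2-fold from the overall median, while 1.94% of all matched peaks did. It was the site at chr11:73071941-73072100 in an intron of Ncbp3, in the upstream flank of Itgae, with 0.552 in animal 1 and 1.68 in animal 2.

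**Figure D4:**
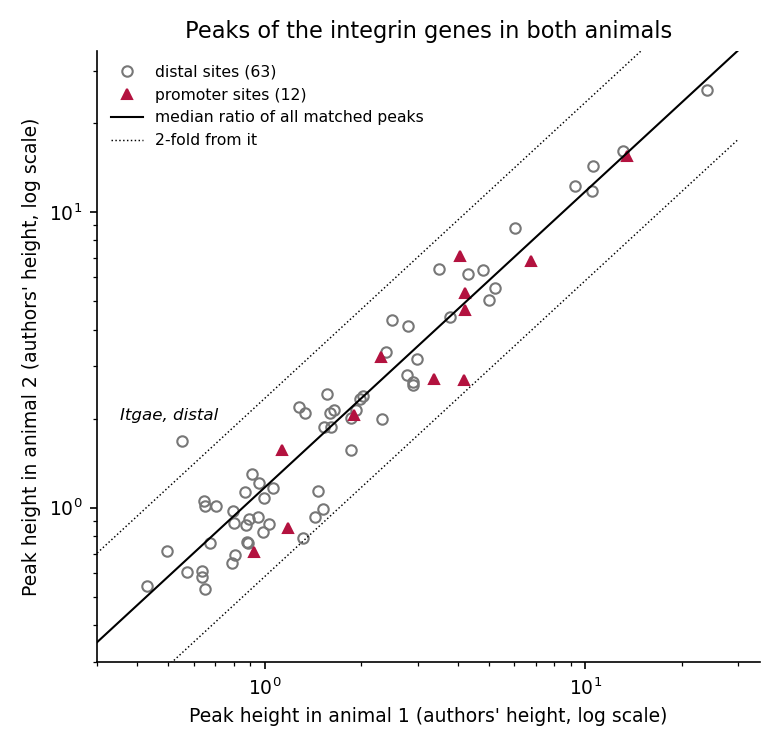
Height in animal 2 against height in animal 1 (both axes authors' height on a log scale) of the 75 sites listed in both animals, with promoter sites as triangles, a solid line at the median ratio of all matched peaks and dotted lines 2-fold from it. All sites but the labelled one in the flank of Itgae lie between the dotted lines.

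Footprints were about as frequent as elsewhere. At least 1 was present in 78 of 93 member peaks in animal 1 (83.9%) and in 82 of 95 in animal 2 (86.3%), against 81.4% and 83.5% of all peaks. The members' peaks held 220 and 242 footprints, or 2.37 and 2.55 per peak, against 2.28 and 2.35. At promoter peaks 13 of 14 had one in each animal (92.9%, against 79.9% and 82.3% of all promoter peaks), with 3.43 and 3.36 per peak against 2.83 and 2.79 over all promoter peaks. Of the 220 distinct footprints of animal 1, 137 overlapped a footprint of animal 2 (62.3%, against 56.9% over all peaks), and of the 240 distinct ones of animal 2, 128 overlapped one of animal 1 (53.3%, against 55.2%). Within peaks found in both animals the shares were 66.2% and 60.1%, against 63.1% and 60.3%.

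Genes around the integrins were described from 3 lists: other integrins, ligands and counter-receptors, and proteins that regulate integrin activation or link integrins to the cytoskeleton. The lists were chosen with earlier results of these data known. Both animals had an open promoter at 15 of the 17 other integrin genes (88.2%), against 59.8% of all coding genes. Itga11 and Itgb6 were closed. The highest were Itgav, the alpha chain of vitronectin receptors, at 12.2 ± 1.02 (SD, n = 2), and Itga2b. The median over the open genes was 1.05 in animal 1 and 1.94 in animal 2, against 4.20 and 4.66 over the open leukocyte integrins.

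Ligand genes were open least often of the 3 lists, 12 of 17 (70.6%), against the 59.8% of all coding genes open in both animals. The closed ones were the fibrinogen genes Fga, Fgb and Fgg, and Spp1 and Vtn, which encode osteopontin and vitronectin. Icam1 and Icam2, both among the ligands of LFA-1, were highest, at 6.49 ± 0.947 and 3.59 ± 0.115 (SD, n = 2). The median over the open ligand genes was 1.40 and 1.70.

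Of 25 activation and adaptor genes 23 were open in both animals (92%), against 59.8% of all coding genes. Fermt1, a kindlin gene, and Tln2, a talin gene, were closed. Fermt2, another kindlin gene, was open but low, with 0.451 in animal 1 and 0.523 in animal 2. The open genes of this list had a median height of 7.97 and 8.39, above the 5.62 and 6.63 of all open promoters. Skap2, an adaptor of leukocyte integrin signalling, stood at 21.2 ± 0.345 and Cyth1, which binds the tail of the Itgb2 chain, at 19.6 ± 0.115 (SD, n = 2). Both were higher than every promoter of the integrin genes themselves.

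**Figure D5:**
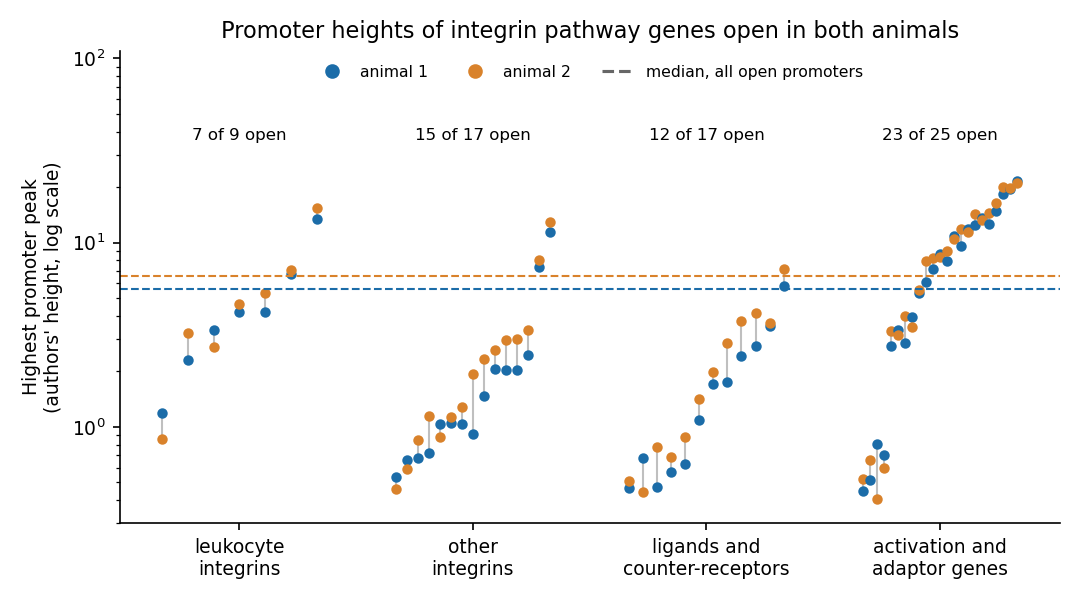
Height of the highest promoter peak (vertical axis, authors' height on a log scale) of each gene open in both animals, for the leukocyte integrins and 3 lists, sorted by mean within each list, with dashed lines at the median over all open promoters of each animal. The activation and adaptor genes have a median of 7.97 and 8.39, and the ligands and other integrins lie mostly below the dashed lines.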

How the data were processed

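DNase-seq of spleen from 2 mice was deposited as peak lists, footprints and cut-rate intervals for each library, aligned to mm10 per the deposited file listing. Which aligner and peak caller were used, and with which cut-offs, is not stated in those listings or in the labels. The peak height is a signal that the authors deposited for each peak, and its scaling is not stated. The false discovery rates of the cut-rate intervals are p-value-like numbers that the authors deposited, listed only below 0.05, and the footprint files hold the constant threshold 0.01. The files used here give no read totals, so depth is seen only through the step of height in each library.

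Genes and start sites came from GENCODE M21, and sequence from the GRCm38 reference of RefSeq. Peaks were taken as shared between animals where they overlapped by 1 bp, and footprints as inside a peak by their midpoint. Peaks overlapping 1 to 1 gave height ratios. Motifs were counted in 30 bp windows around footprints and 300 bp windows around promoter peaks. Python 3.11.15, numpy 2.4.6, pandas 2.3.3, pysam 0.24.0, samtools 1.23.1 and bedtools 2.31.1 were used, and the overlap code was tested on simulated peaks. No test was made, since there is 1 group of 2 libraries. Named sites were the highest promoter peak and the 2 highest distal peaks of each gene, and of each list the 2 highest promoters and the first 3 closed genes in alphabetical order, with other sites singled out after their values were seen. The members and lists were chosen with earlier results of these data known. Alternatives changed the peak list, promoter width, start sites, flank, overlap, height minimum and motif window, and left out each animal.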

Additional observations from a re-analysis of the deposited data

How the results depend on the processing

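The count of 7 open promoters was the same with the shorter peak list, with narrower or wider promoters, with other start sites and in each animal alone, and fell to 6 among peaks at or above the median height, where Itgam was lost in animal 2. The mean number of distal peaks per animal, 80, became 51.5 with a flank of 10 kb and 43 among peaks at or above the median height, both by construction fewer. The mean share of peaks found in the other animal, 81.9%, became 70.2% with a reciprocal overlap of 50%, 83.8% in the shorter list and 86.6% among the higher peaks. The median log2 ratio of 0.16 became -0.066 once the median over all matched peaks was subtracted, so its sign is that of the libraries as a whole. Leaving out each animal gave 79 to 81 distal peaks, 81.1% to 82.8% found and 220 to 242 footprints. The distal count became 55.5 with the shorter list, 57 without peaks at other coding promoters and 114 with a flank of 50 kb, and the mean number of footprints, 231, became 187.5 with the shorter list. That list also left 13 other integrins, 9 ligand genes and 20 activation and adaptor genes open in both animals. The main counts were 15, 12 and 23. The share of all protein-coding genes open with the shorter list, or at or above the median height, was not counted. Whether the members or these lists lost more than all genes did is therefore not known. With windows of 50 bp around footprints, by construction wider, the members' mean share with PU.1 letters was 2.86%, against 1.40% and 1.10% of all footprint windows in animals 1 and 2, and with RUNX letters 3.45%, against 1.80% and 1.49%. No paired analysis was possible because there is 1 group and no contrast. With 2 libraries no spread within the strain can be estimated well, absence of a peak is limited by depth, and a peak near a neighbour's promoter cannot be assigned to a gene by position.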
